A study of Mus musculus with 12 samples.

Results

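The 10 genes described here encode enzymes and helper proteins that mature fibrillar collagen: the lysyl oxidases Lox, Loxl1, Loxl2 and Loxl3, the prolyl 4-hydroxylase subunits P4ha1, P4ha2 and P4ha3, the lysyl hydroxylase Plod2, the collagen chaperone Serpinh1 (HSP47) and the procollagen C-proteinase enhancer Pcolce. They were chosen by name from the 16514 genes that the deposited tables list, and all 10 were found. RNA was sequenced from hearts of male C57Bl/6J mice aged 12 weeks in 4 groups of 3 libraries. All animals received 1% propionate in the diet, so no group lacked it. The control groups ate a diet with branched-chain amino acids (BCAA) and the BCAA-free groups ate one without them, from 4 days before surgery onwards. Surgery was a sham operation or transverse aortic constriction (TAC), a banding that narrows the aortic arch and raises the pressure the ventricle pumps against, and hearts were taken 1 week later. Depth was 29929161 to 46101244 reads per library in the genes listed. Whether each library came from its own mouse is not stated in the labels, and p-values here therefore reflect only library-to-library spread, which may be partly technical.

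Collagen chains are modified and folded inside the cell before they are secreted. Prolyl 4-hydroxylases hydroxylate prolines, which makes the triple helix stable at body temperature, lysyl hydroxylases prepare lysines for crosslinking, and Serpinh1 binds the folded procollagen in the endoplasmic reticulum. Outside the cell, Pcolce speeds the removal of the C-terminal propeptide, and the copper-dependent lysyl oxidases oxidise lysines in collagen and elastin so that fibres become crosslinked. In the heart these genes are mainly known from fibroblasts, and crosslinked collagen is a known contributor to stiffness of the pressure-loaded ventricle.

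Levels are given as CPM, the reads recovered from the deposited values scaled to one library total with trimmed mean of M-values (TMM) factors, and between genes as CPM per kilobase of merged exon (CPM per kb). On the per-kb scale Serpinh1 was the highest of the 10 in every group, at 92.5 ± 23.8 CPM per kb in control sham hearts (SD, n = 3). Loxl1, Pcolce, P4ha1 and P4ha2 followed in control sham hearts, with 14.0 ± 1.06, 13.8 ± 0.282, 11.7 ± 2.30 and 9.63 ± 0.233 CPM per kb. The ranges of neighbours in that order overlapped from Loxl1 down to P4ha2. Plod2 stood at 5.58, Loxl2 at 3.02, Loxl3 at 1.44 and Lox at 0.901 CPM per kb in control sham hearts, each with a range apart from the next. P4ha3 was the lowest in every group, at 0.0672 ± 0.0306 CPM per kb in control sham hearts. Lox ranked 9 of 10 in both sham groups, 8 in control TAC hearts and 6 in BCAA-free TAC hearts, where its range of 3.64 to 12.0 CPM per kb overlapped that of its neighbours in the order, P4ha2 and Plod2.

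**Figure D1:**
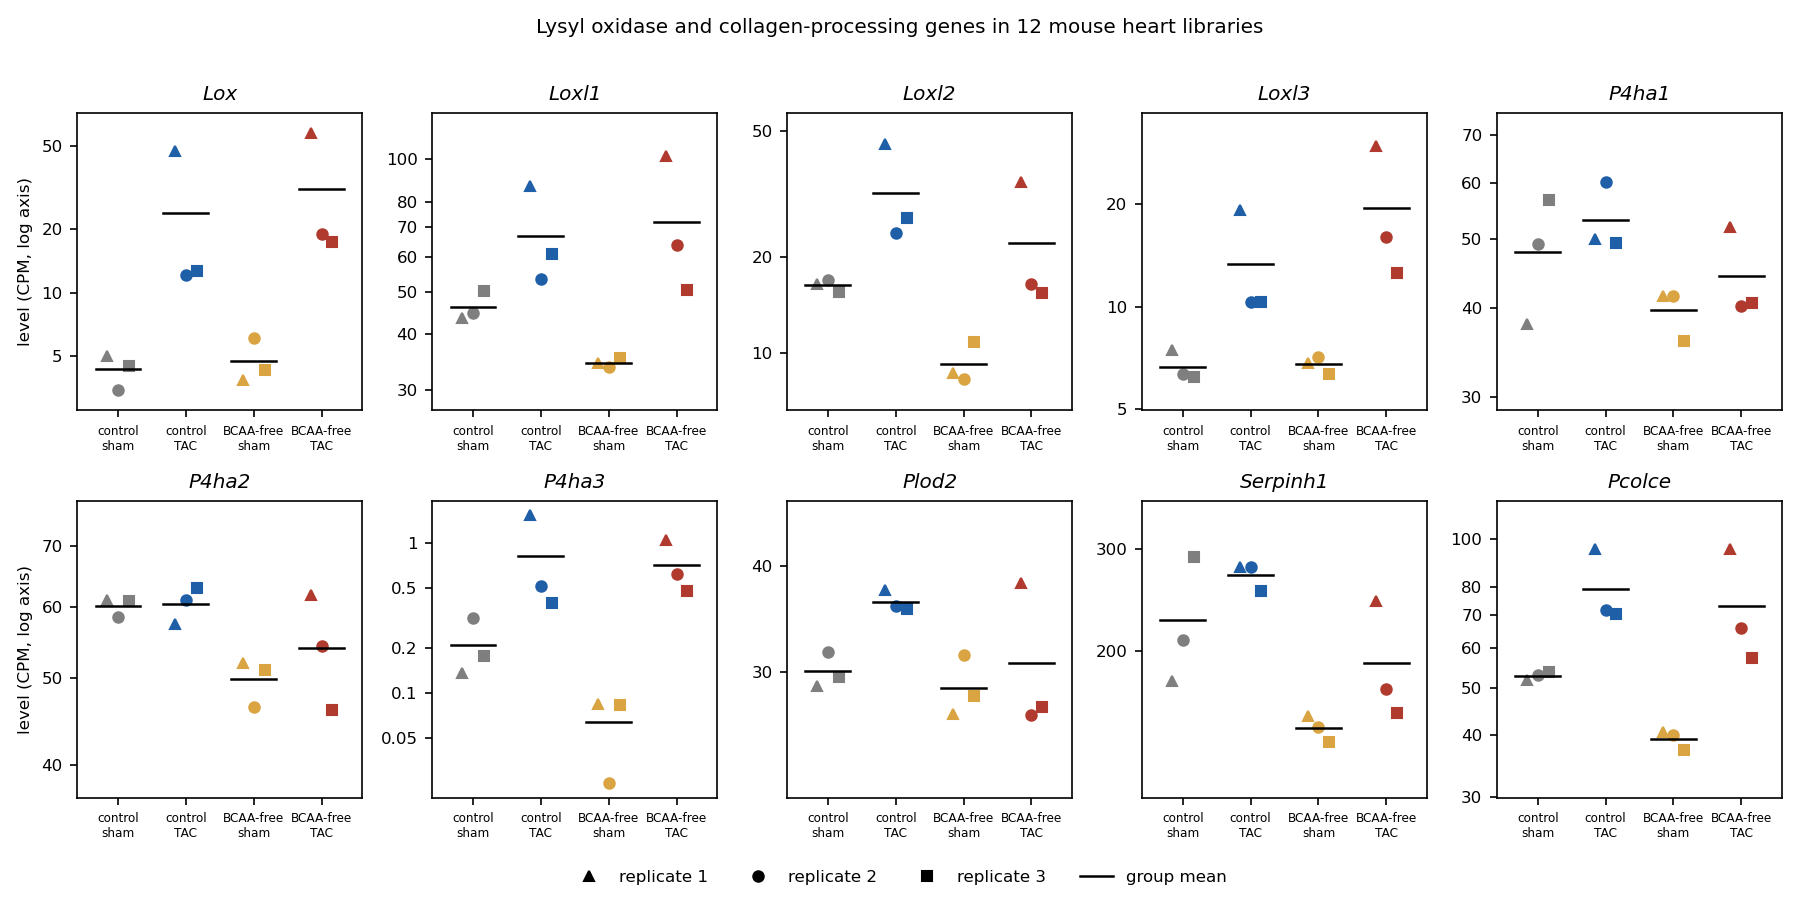
Level of each of the 10 genes in the 12 libraries, in CPM on a log axis, by group; points are single libraries (triangle, circle and square for replicates 1, 2 and 3) and black lines are group means. Lox lies between 3.45 and 6.06 CPM in all 6 sham libraries and between 12.2 and 57.4 CPM in all 6 TAC libraries, and replicate 1 is the highest TAC library for most genes.

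Lysyl oxidases rose with TAC: Lox, Loxl2 and Loxl3 on the control diet, and all 4 on the BCAA-free diet. Pcolce rose on both diets. P4ha3 is left out of the counts here, since its sham means were under the minimum of 10 and it entered the test through its TAC libraries. Of the other 9 genes, 4 rose on the control diet, where 3.4% of the 15873 genes tested rose. With the BCAA-free diet 5 of these 9 rose, against 2.94% of 15936 genes tested. None of the 9 fell with TAC on either diet, beside 1.94% and 1.37% of all genes. The median difference over the 9 genes was 0.51 on the log2 scale on the control diet and 0.85 on the BCAA-free diet, beside 0 over all genes tested on each diet. Differences are on a log2(value + 4) scale of the deposited values, which understates changes of the lowest genes, and adjusted p-values are from limma over all genes tested. Heart RNA is a mixture, so fewer cells of a type and less RNA per cell cannot be told apart in any of these values.

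Lox, the founding lysyl oxidase, was at 4.99, 3.45 and 4.48 CPM in the control sham libraries and at 47.1, 12.2 and 12.7 CPM in the control TAC libraries. In BCAA-free hearts it was at 3.85, 6.06 and 4.29 CPM in sham and at 57.4, 19.1 and 17.4 CPM in TAC libraries. Every TAC library was above every sham library, and within each TAC group replicate 1 stood far above the other two. The rise was 2.16 ± 0.44 (log2 difference ± SE), or 4.46-fold, on the control diet (limma, adjusted p = 0.0257), and 2.49 ± 0.37, or 5.62-fold, on the BCAA-free diet (limma, adjusted p = 0.00656). Without any one of the control sham libraries the control-diet call was lost, with adjusted p up to 0.0712 and a difference of 1.52 to 2.49 over all 6 omissions. The BCAA-free call was lost without sham replicate 3 of that diet (adjusted p = 0.0504). Lox did not pass the test for diet in sham hearts (0.13, 95% interval -0.29 to 0.55) or in TAC hearts (0.46, interval -0.82 to 1.74).

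Loxl1, the lysyl oxidase best known from elastic fibres, was at 43.6, 44.7 and 50.1 CPM in control sham hearts and at 86.5, 53.3 and 60.8 CPM in control TAC hearts. The BCAA-free values were 34.4, 33.7 and 35.3 CPM in sham and 101.5, 63.7 and 50.5 CPM in TAC hearts. The groups did not overlap on either diet, but the control-diet difference of 0.51 ± 0.15 missed the threshold (limma, adjusted p = 0.0888). The BCAA-free rise was 0.99 ± 0.19 (limma, adjusted p = 0.0208). That call was lost without any one of the 3 BCAA-free sham libraries, with adjusted p up to 0.112 and a difference of 0.70 to 1.21. Whether the response differed between diets was tested directly, and the difference of 0.48 (95% interval -0.14 to 1.10) did not pass (limma, adjusted p = 0.618).

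Loxl2, which crosslinks collagen IV and fibrillar collagens, combined a rise with TAC and lower levels on the BCAA-free diet. It was at 16.5, 17.0 and 15.5 CPM in control sham, 45.4, 23.8 and 26.5 CPM in control TAC, 8.67, 8.30 and 10.8 CPM in BCAA-free sham, and 34.6, 16.5 and 15.4 CPM in BCAA-free TAC libraries. TAC libraries lay above sham libraries on each diet, BCAA-free sham libraries lay below control sham libraries, and BCAA-free TAC replicates 2 and 3 lay close to the control sham range. It rose by 0.90 ± 0.20 on the control diet (limma, adjusted p = 0.0345) and by 1.15 ± 0.25 on the BCAA-free diet (limma, adjusted p = 0.0319). Each call was lost without any one sham library of its diet, with adjusted p up to 0.0996 and 0.157.

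Loxl3, a lysyl oxidase of the same scavenger-receptor-domain subgroup as Loxl2, was at 7.45, 6.32 and 6.19 CPM in control sham and at 19.3, 10.3 and 10.3 CPM in control TAC libraries. In BCAA-free hearts it was at 6.79, 7.11 and 6.33 CPM in sham and at 29.8, 16.0 and 12.6 CPM in TAC libraries. The TAC and sham groups did not overlap on either diet. It rose by 0.93 ± 0.22 on the control diet (limma, adjusted p = 0.0446) and by 1.41 ± 0.24 on the BCAA-free diet (limma, adjusted p = 0.013). Without any one sham library of the same diet, or without control TAC replicate 2, the respective call was lost, with adjusted p up to 0.12 on the control and 0.0734 on the BCAA-free diet. In the GENCODE annotation 535 exon bases of Loxl3 lie opposite exons of Htra2, and strand use in the counting is not given in the sources used here, so Loxl3 values are uncertain. Htra2 itself differed by 0.02 with TAC on each diet (limma, adjusted p = 0.919 and 0.934).

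The 3 catalytic subunits of collagen prolyl 4-hydroxylase were compared side by side. P4ha1 and P4ha2, the widely expressed subunits, did not pass the test for TAC on either diet, and P4ha3 is a scarce transcript whose values lean on the TAC libraries. Part of the RefSeq promoter window (GRCm38.p6) of each is shown to let these genes be compared. Each stretch is upstream of the start that RefSeq gives and is printed 5′ to 3′ on the plus strand, which is the strand of these genes, with matches to the hypoxia response core (ACGTG or GCGTG on either strand) in capitals. P4ha1 is shown at chr10:59323046-59323196, P4ha2 at chr11:54100674-54100923 and P4ha3 at chr7:100285270-100285488. The GENCODE model of P4ha2 starts earlier, at 54100095, so the P4ha2 stretch lies within that model.
P4ha1: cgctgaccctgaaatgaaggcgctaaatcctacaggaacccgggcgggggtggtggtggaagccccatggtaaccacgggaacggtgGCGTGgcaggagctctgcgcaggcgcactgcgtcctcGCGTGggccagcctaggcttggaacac
P4ha2: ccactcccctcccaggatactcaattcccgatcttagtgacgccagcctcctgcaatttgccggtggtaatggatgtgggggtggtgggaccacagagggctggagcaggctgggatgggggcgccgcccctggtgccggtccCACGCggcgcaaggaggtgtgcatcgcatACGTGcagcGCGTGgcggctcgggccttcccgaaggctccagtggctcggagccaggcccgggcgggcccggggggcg
P4ha3: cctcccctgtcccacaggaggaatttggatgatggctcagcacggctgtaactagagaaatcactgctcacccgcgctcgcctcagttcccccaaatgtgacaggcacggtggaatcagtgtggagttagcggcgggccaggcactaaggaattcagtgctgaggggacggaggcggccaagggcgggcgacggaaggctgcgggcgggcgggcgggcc
The P4ha1 and P4ha2 stretches hold such letters and the P4ha3 stretch does not. The core is short and common, present in 43.8% of 32851 promoter windows, so a match is a description of the letters only. RefSeq promoter entries were matched for 5 of the 10 genes.

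P4ha1 was at 37.9, 49.2 and 56.8 CPM in control sham, 49.98, 60.2 and 49.4 CPM in control TAC, 41.6, 41.6 and 35.9 CPM in BCAA-free sham, and 52.0, 40.2 and 40.7 CPM in BCAA-free TAC libraries. The sham and TAC groups overlapped on both diets, with differences of 0.16 (95% interval -0.15 to 0.47) and 0.14 (interval -0.09 to 0.38). P4ha2 was at 61.0, 58.4 and 60.8 CPM in control sham and at 57.4, 61.0 and 62.9 CPM in control TAC libraries, a difference of 0.01 with an interval of -0.14 to 0.15. In BCAA-free hearts P4ha2 was at 52.0, 46.4 and 51.0 CPM in sham and at 61.8, 54.2 and 46.0 CPM in TAC libraries, which overlapped. All 3 BCAA-free sham libraries were below all 3 control sham libraries for P4ha2, a difference of -0.26 ± 0.06 that missed the threshold (limma, adjusted p = 0.0547).

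Few reads stand behind P4ha3. It had 4, 10 and 6 reads in control sham, 69, 19 and 16 reads in control TAC, 3, 1 and 3 reads in BCAA-free sham, and 38, 23 and 22 reads in BCAA-free TAC libraries. Every TAC library had more reads than every sham library of its diet, and replicate 1 was the highest TAC library on each diet. The difference was 2.24 ± 0.39 on the BCAA-free diet (limma, adjusted p = 0.0128) and 1.36 ± 0.48 on the control diet (limma, adjusted p = 0.13). Its mean deposited values were 2.45 in BCAA-free sham and 27.3 in BCAA-free TAC hearts, so it passed the minimum mean of 10 only through the group where it is high, and the first of these p-values is given as a description. Over the summed libraries the ratio of TAC to sham CPM was 11.1 for BCAA-free and 4.04 for control hearts. Exact 95% intervals, for counting error only, were 5.16 to 28.5 and 2.49 to 6.88. The difference between the diets' responses was 0.87 (95% interval -0.45 to 2.20) and did not pass (limma, adjusted p = 0.695). Without any one BCAA-free sham library the BCAA-free adjusted p was up to 0.0712, and without BCAA-free TAC replicate 1 it was under the minimum mean and not tested. The table of sham hearts does not list P4ha3, so its diet difference in sham hearts was not tested.

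Plod2, which hydroxylates lysines of the collagen telopeptides, was at 28.9, 31.7 and 29.6 CPM in control sham and at 37.5, 36.0 and 35.6 CPM in control TAC libraries. These groups did not overlap, yet the difference of 0.27 ± 0.07 narrowly missed the threshold (limma, adjusted p = 0.056). In BCAA-free hearts Plod2 was at 26.8, 31.4 and 28.2 CPM in sham and at 38.2, 26.7 and 27.3 CPM in TAC libraries. Only BCAA-free TAC replicate 1 was above the sham range there, and the difference was 0.07 (95% interval -0.22 to 0.36). In the annotation 346 exon bases of Plod2 lie opposite Gm38391, a low-level transcript that differed by -0.02 and -0.15 with TAC (limma, adjusted p = 0.98 and 0.77).

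Serpinh1, the chaperone that is specific to collagen, was at 178.0, 209.4 and 290.6 CPM in control sham and at 279.3, 279.0 and 253.9 CPM in control TAC libraries. The groups overlapped through control sham replicate 3, and the difference of 0.29 ± 0.15 did not pass (limma, adjusted p = 0.291). Its BCAA-free levels were 154.9, 148.0 and 139.8 CPM in sham and 244.3, 172.1 and 156.8 CPM in TAC libraries. These groups did not overlap, and the difference of 0.34 ± 0.14 did not pass (limma, adjusted p = 0.186). Pcolce was at 51.7, 53.0 and 53.8 CPM in control sham and at 95.3, 71.7 and 70.6 CPM in control TAC libraries. Its BCAA-free levels were 40.7, 40.1 and 37.4 CPM in sham and 95.6, 66.1 and 57.3 CPM in TAC libraries, again with no overlap. It rose by 0.57 ± 0.11 on the control diet (limma, adjusted p = 0.0207) and by 0.85 ± 0.15 on the BCAA-free diet (limma, adjusted p = 0.0145). The control-diet call was lost without control sham replicate 1 or 3 and the BCAA-free call without any one BCAA-free sham library, with adjusted p up to 0.0737 and 0.0817.

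**Figure D2:**
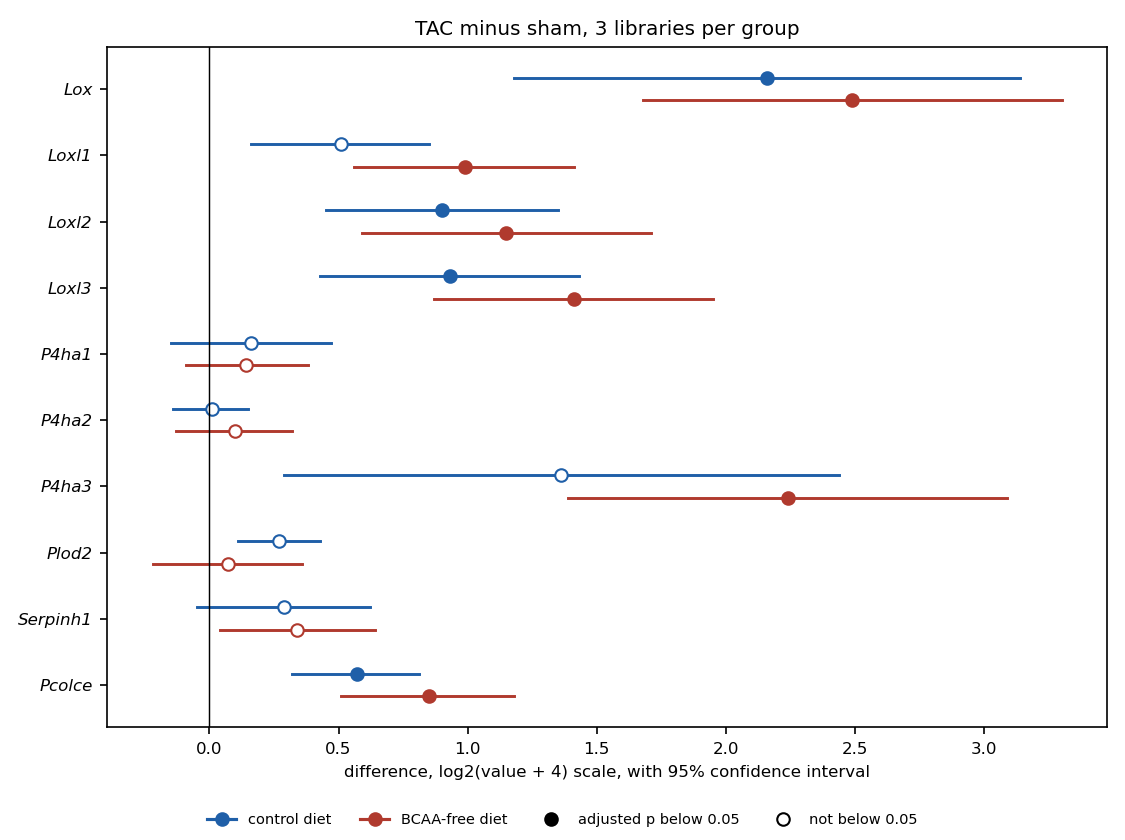
Difference between TAC and sham hearts for each gene on the log2(value + 4) scale, with its 95% confidence interval, on the control diet (blue) and the BCAA-free diet (red); filled points passed limma at an adjusted p below 0.05. Lox lies at 2.16 and 2.49 on this scale, which understates the scarce P4ha3 (CPM ratio 11.1 on the BCAA-free diet), and P4ha1 and P4ha2 have intervals that include 0 on both diets.

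In all, the TAC and sham libraries did not overlap for 6 of the 9 genes other than P4ha3 on the control diet, all higher with TAC, where 14.5% of all genes tested were apart in that direction. The BCAA-free groups were apart and higher for 6 of these 9, against 14% of all genes. The calls depended on how the spread was estimated. With limma's robust estimate, which limits the influence of genes with unusual variance, Pcolce alone of these 9 kept its call on the control diet and none on the BCAA-free diet, and Lox had an adjusted p of 0.129 and 0.107, while 867 and 667 of all genes passed (848 and 688 without it). Without any one control sham library, 0 or 1 of the 10 genes rose on the control diet, and without any one BCAA-free sham library 0 or 1 rose on the BCAA-free diet. Over all genes the calls numbered 300 to 659 and 106 to 118 in these fits, down from 848 and 688. Without control TAC replicate 3 the count on the control diet was 4 when the minimum level was applied again to the libraries that remained, and 0 when the genes of the full comparison were kept, with 634 and 91 calls over all genes. That library stood apart in liver markers. The 3 of 7 listed for all 12 libraries summed to 49.73 CPM, beside 8.93 to 16.15 CPM in the other 11. The remaining liver markers are not in this sum, and the part of these markers in the result was not tested. The authors' deposited table gave an adjusted p below 0.05 for 7 of the 10 genes on the control diet and 6 on the BCAA-free diet, P4ha3 among them, and for 9.96% and 7.18% of the genes with a value.

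Within a surgery group, the calls for diet were in sham hearts. The diet differences were not shown to differ between sham and TAC hearts. Loxl1, Loxl2, Serpinh1 and Pcolce fell on the BCAA-free diet, 4 of the 9 genes tested, where 1.76% of 15596 genes fell. None of the 9 rose, beside 1.05% of all genes. Loxl2 fell by 0.81 on the log2 scale (SE 0.11, 0.57 of the control level; limma, adjusted p = 0.0052) and Serpinh1 by 0.58 (SE 0.14; limma, adjusted p = 0.0474). Loxl1 fell by 0.41 (SE 0.07; limma, adjusted p = 0.0156) and Pcolce by 0.42 (SE 0.06; limma, adjusted p = 0.0078). For these 4 genes and P4ha2 every BCAA-free sham library was below every control sham library, 5 of 9 against 11.8% of all genes. Lox and Loxl3 differed by 0.13 and 0.03, and Plod2 by -0.06, with overlapping libraries. Leaving out 1 library kept the Loxl2 call in 6 of 6 cases, with adjusted p up to 0.0435. The Pcolce call was lost without BCAA-free sham replicate 3 (adjusted p = 0.0535), and the Loxl1 call without any one BCAA-free sham library (adjusted p up to 0.0803). The Serpinh1 call was lost without any one BCAA-free sham library or control sham replicate 2 (adjusted p up to 0.182). It was also lost with DESeq2 (adjusted p = 0.0795), with the robust spread (limma, adjusted p = 0.195), with quantile normalization (limma, adjusted p = 0.0523) and with a minimum mean of 50 (limma, adjusted p = 0.0541), at a log2 difference of -0.58 to -0.61. The authors' deposited table gave Serpinh1 an adjusted p of 0.0831 there. It listed 4 of 9 genes below 0.05, Loxl1, Loxl2, P4ha2 and Pcolce, beside 5.21% of the genes with a value. When all 12 libraries were fitted together on a common scale, 0 of the 9 passed, and calls over all genes went from 438 to 148. Loxl2 and Loxl1 were at -0.82 and -0.42 in that fit (limma, adjusted p = 0.142 and 0.335).

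In TAC hearts no gene of the 10 passed the test for diet, where 3.38% of 16222 genes did. Of the 10 differences 7 were below 0 and 3 above, beside 50.7% above 0 over all genes. Loxl2 was at -0.56 (95% interval -1.28 to 0.16), beside -0.81 in sham hearts. At an unadjusted p below 0.05 limma left 3222 of the 16222 genes, among them 1 of the 10. At an adjusted p below 0.05 edgeR passed 492 and DESeq2 1181 of all genes, with 0 and 1 of the 10 among them. That gene was Serpinh1, at -0.53 ± 0.15 (limma, adjusted p = 0.0888; DESeq2, adjusted p = 0.0116), and each BCAA-free TAC library was below each control TAC library, as for 13% of all genes. The authors' deposited table also listed 1 of 10 below 0.05 there, beside 7.8% of the genes with a value. It was Serpinh1, at a log2 fold change of -0.50 with an adjusted p of 0.0111. Without replicate 1 of both TAC groups, 4 of the 10 genes passed, in both directions, while calls over all genes went from 548 to 941. Serpinh1 was then at -0.70 (limma, adjusted p = 0.00511), Loxl2 at -0.65 (limma, adjusted p = 0.0131) and Plod2 at -0.41 (limma, adjusted p = 0.032), all lower on the BCAA-free diet. Lox was at 0.55 (limma, adjusted p = 0.0284), higher on the BCAA-free diet. Without BCAA-free TAC replicate 1 alone, 2 of the 10 passed, and 1044 of all genes.

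The test of whether the TAC response differed between diets passed for 0 of the 10 genes, and for 0.0451% of 15524 genes. None of the 10 had an unadjusted p below 0.05 with limma, beside 1568 of the 15524 genes. The median without P4ha3 was 0.25, beside 0 over all genes tested. For Loxl1 the difference was 0.48 (95% interval -0.14 to 1.10), so its call on 1 diet only does not show a difference between diets. Averaged over surgery, 3 of 9 genes were lower on the BCAA-free diet, where 6.57% of 15458 genes were. These were Serpinh1 at -0.55 ± 0.11 (limma, adjusted p = 0.00821), Loxl2 at -0.69 ± 0.19 (limma, adjusted p = 0.0301) and P4ha2 at -0.22 ± 0.06 (limma, adjusted p = 0.0414). The Serpinh1 call was kept in all 12 omissions of 1 library, with adjusted p up to 0.0267. The calls of Loxl2 and P4ha2 were lost in 7 and 10 of the 12 omissions, and without replicate 1 of both TAC groups 6 of the 9 genes passed, while calls over all genes went from 1819 to 2329. Without BCAA-free TAC replicate 1 the count was also 6, and 2484 over all genes. It was 1 without control sham replicate 2, without either of replicates 2 and 3 of BCAA-free TAC, and without either of replicates 1 and 2 of BCAA-free sham.

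**Figure D3:**
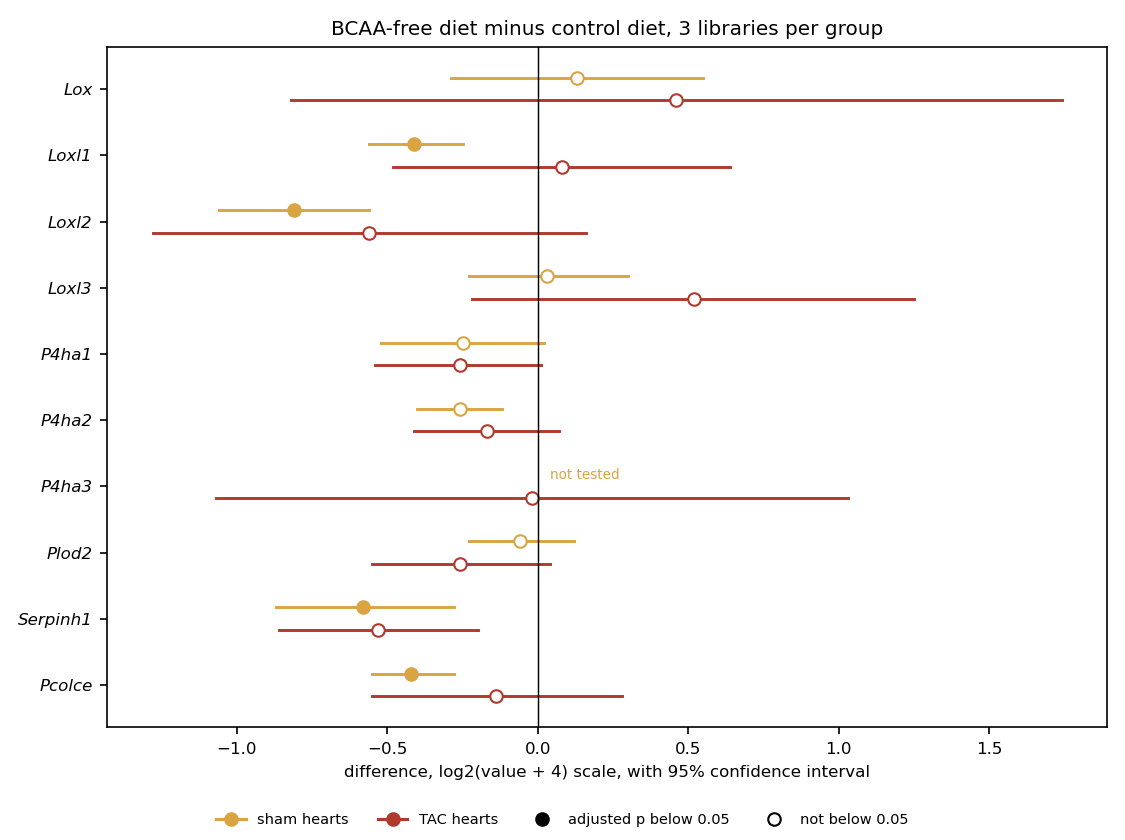
Difference between the BCAA-free and the control diet for each gene on the log2(value + 4) scale, with its 95% confidence interval, in sham hearts (ochre) and TAC hearts (red); filled points passed limma at an adjusted p below 0.05, and P4ha3 was not tested in sham hearts. Loxl1, Loxl2, Serpinh1 and Pcolce are lower in sham hearts, and the intervals in TAC hearts are wide, with Lox reaching from -0.82 to 1.74.

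Further genes of collagen maturation were counted beside their substrates. Over all genes tested, 3.4% rose and 1.94% fell with TAC on the control diet, and 2.94% rose and 1.37% fell on the BCAA-free diet. Among 25 further collagen-modifying enzymes and chaperones, 2 rose with TAC on the control diet, Adamts2, a procollagen N-proteinase, by 1.07 and Crtap, part of the prolyl 3-hydroxylase complex, by 0.52 (limma, adjusted p = 0.0107 and 0.0311). On the BCAA-free diet Adamts2 rose by 1.34 and the prolyl isomerase Ppib by 0.31, and Tll2, a tolloid-like proteinase, fell by 1.34 (limma, adjusted p = 0.00782, 0.043 and 0.0344). Tll2 was as scarce as P4ha3, at 0.67 CPM in BCAA-free sham and 0.21 CPM in BCAA-free TAC hearts. It leaned on the group where it was higher, so its p-value is given as a description. The median of these 25 was 0.24 on the control and 0.18 on the BCAA-free diet. Of 10 fibrillar collagens and elastin tested, 6 rose with TAC on each diet, among them Col3a1 by 1.65 and 2.25 and Eln by 1.73 and 1.67 (limma, adjusted p = 0.0158, 0.00313, 0.0133 and 0.0083). In the 8 helpers of lysyl oxidase, Postn, a matricellular protein, rose by 2.26 and 2.69 and Fn1, fibronectin, by 1.22 and 1.31, and Fbn1, fibrillin, rose on the BCAA-free diet by 0.97 (limma, adjusted p up to 0.0335).

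In sham hearts, where 1.76% of all genes fell on the BCAA-free diet, 5 of 9 fibrillar collagen and elastin genes did. Among them were Col3a1, by 1.05, and Col1a1, by 0.68 (limma, adjusted p = 0.00132 and 0.00455). Of the 25 further enzymes 1 fell, Adamts2, by 0.45 (limma, adjusted p = 0.0155). In TAC hearts Plod1, the sister gene of Plod2, fell by 0.39 on the BCAA-free diet and Tll2 by 1.38 (limma, adjusted p = 0.0286 and 0.0487), where 3.38% of all genes passed in either direction. The scarce Tll2 was at 0.69 CPM in control TAC and 0.21 CPM in BCAA-free TAC hearts, so its p-value is again a description. P4ha1, Plod2 and Lox are known targets of hypoxia signalling and Lox and Plod2 of TGF-beta, so both kinds of genes were counted as well. These counts are a description, and the part of either signal in the enzyme values was not tested. None of 15 hypoxia-inducible genes passed the test for TAC on either diet, and their medians were 0.02 and -0.02. Over all genes 3.4% rose and 1.94% fell on the control diet, and 2.94% and 1.37% on the BCAA-free diet, so 0 of 15 is near that share. Of 9 TGF-beta responsive genes, 5 rose on the control and 4 on the BCAA-free diet, among them Ltbp2 by 1.79 and 2.61 and Cthrc1 by 3.22 and 3.73 (limma, adjusted p = 0.00918, 0.00582, 0.0219 and 0.0118). Cthrc1 was scarce in sham hearts, at 0.22 CPM on the control and 0.19 CPM on the BCAA-free diet. Like P4ha3 it leaned on its TAC libraries, at 4.44 and 5.24 CPM, so its p-values are given as a description. Among genes for copper and ascorbate supply, the cofactors of these enzymes, 0 of 7 and 0 of 8 tested passed with TAC, also near the share over all genes. The copper chaperone Atox1 differed by 0.14 and 0.35 (limma, adjusted p = 0.34 and 0.0862).

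Enzyme reads were also set against the reads of their main substrates, as reads per 1000 reads of Col1a1, Col1a2 and Col3a1 together. The summed collagen level was 365 to 435.8 CPM in control sham, 818.8 to 2012 CPM in control TAC, 207.2 to 257.1 CPM in BCAA-free sham and 588.8 to 1701 CPM in BCAA-free TAC libraries. Per 1000 collagen reads, Serpinh1 went from 545.3 ± 105.2 in control sham to 252.2 ± 103.2 in control TAC hearts, and from 640.1 ± 93.6 to 205.2 ± 61.4 on the BCAA-free diet (SD, n = 3). P4ha1 went from 115.7 ± 13.4 to 50.8 ± 24.5 and from 171.9 ± 25.2 to 49.3 ± 19.3. Such lower ratios were the background here: 8 of the 10 genes had all TAC libraries below all sham libraries on each diet, as did 90.8% of 15650 genes on the control diet and 96.4% on the BCAA-free diet.

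Lox went the other way, from 10.6 ± 2.89 to 17.4 ± 5.27 reads per 1000 collagen reads on the control diet and from 20.1 ± 2.96 to 28.7 ± 5.49 on the BCAA-free diet. On the control diet its TAC libraries, at 13.8 to 23.4, did not overlap its sham libraries, at 7.92 to 13.7, a state that 0.173% of all genes reached in the higher direction. The gap was narrow, from 13.66 in control sham replicate 1, with 146 Lox reads, to 13.82 in control TAC replicate 3. Counting error was not allowed for. On the BCAA-free diet the groups overlapped for Lox. P4ha3 went from 0.504 ± 0.199 to 0.610 ± 0.164 on the control diet, with overlap. On the BCAA-free diet it went from 0.286 ± 0.165 to 0.725 ± 0.100 without overlap, where 0.0895% of all genes were apart and higher. Its BCAA-free sham ratios rest on only 3, 1 and 3 reads, and it entered the tests through its TAC libraries. With 3 libraries against 3, an exact permutation test of a single ratio cannot go below 0.10, so these ratios are given as a description.

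**Figure D4:**
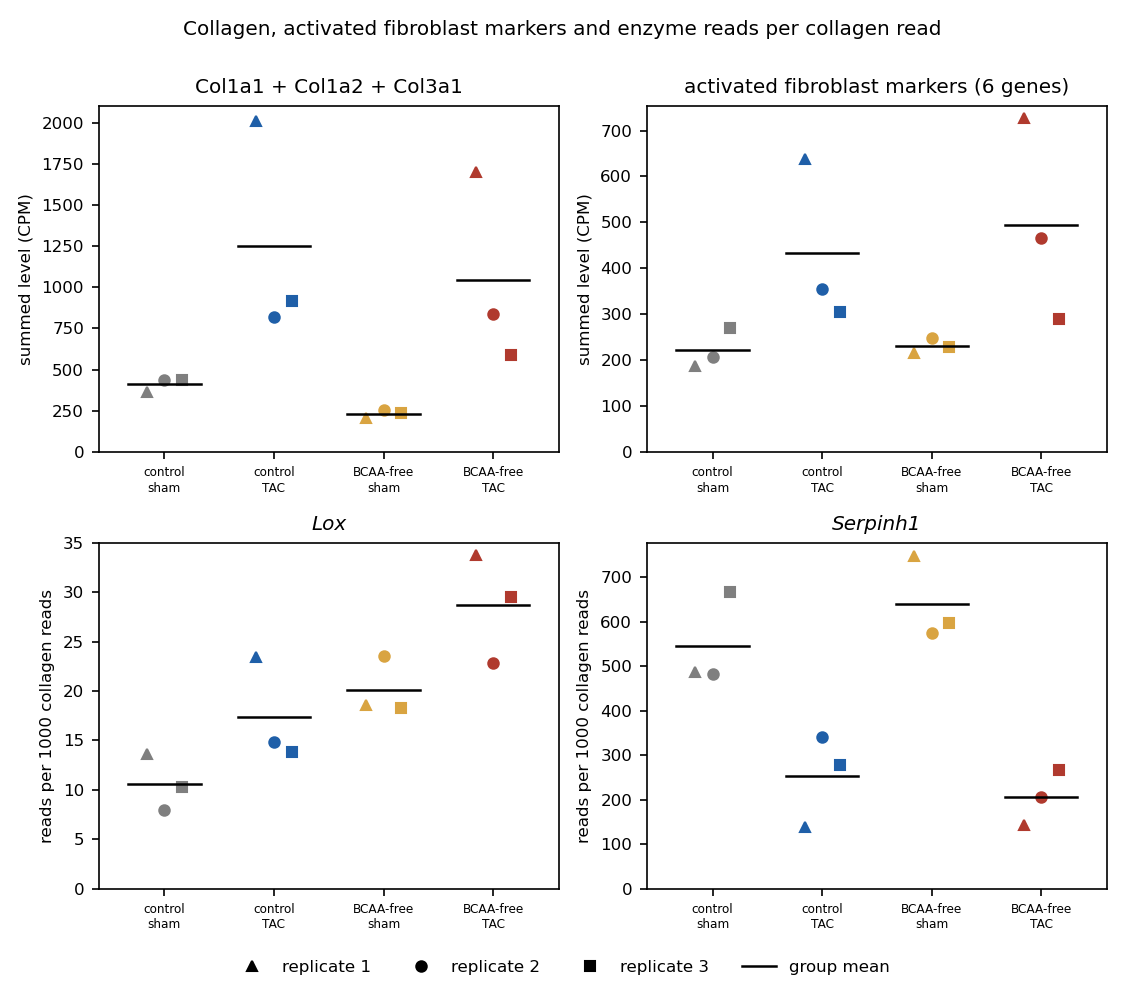
Summed CPM of Col1a1, Col1a2 and Col3a1 and of 6 activated fibroblast markers (top), and reads of Lox and Serpinh1 per 1000 collagen reads (bottom), by group; points are single libraries and black lines are group means. Collagen is highest in replicate 1 of both TAC groups, at 2012 and 1701 CPM, and the Serpinh1 ratio is lowest in these same libraries.

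Among the TAC libraries, replicate 1 was the highest for 8 of the 10 genes on the control diet and for 10 of 10 on the BCAA-free diet. In the sham groups no replicate was the highest for more than 4 of the 10. Lox in replicate 1 was 3.87 times the lowest control TAC library and 3.30 times the lowest BCAA-free TAC library. The summed level of 6 activated fibroblast markers (Postn, Cthrc1, Acta2, Comp, Fap and Meox1), none at 0 in any library, moved with it, at 638, 355.5 and 304.2 CPM in control TAC and at 726.8, 465.3 and 288.9 CPM in BCAA-free TAC libraries, beside 186.3 to 270 CPM in sham libraries. The rise of this sum leans on Postn, whose mean went from 38.6 to 204.9 CPM on the control and from 27.65 to 212.3 CPM on the BCAA-free diet. Of these 6 markers 2 rose with TAC on each diet, beside 3.4% and 2.94% of all genes, with 6 of 6 differences above 0. The 2 were Postn and Cthrc1, which is scarce in sham hearts and leaned on its TAC libraries. The 8 general fibroblast markers summed to 2029 to 2261 CPM in control sham and 1730 to 1880 CPM in control TAC hearts, and to 1892 to 1989 and 2077 to 2386 CPM on the BCAA-free diet. With TAC 2 of these 8 rose and 2 fell on the control diet, and 4 rose on the BCAA-free diet. In sham hearts 4 of the 8 fell on the BCAA-free diet, where 1.76% of all genes fell. Col1a1, a collagen already described above, is 1 of these 4. Macrophage markers summed to 210.8 to 218 CPM in control sham, 209.3 to 328.6 in control TAC, 158 to 173.9 in BCAA-free sham and 278.2 to 335.6 in BCAA-free TAC hearts. Leaving out replicate 1 of the TAC groups, 4 of the 9 genes other than P4ha3 rose on the control diet and 5 on the BCAA-free diet, and calls over all genes went from 848 to 400 and from 688 to 796. Cardiomyocyte markers, which check the tissue, summed to 67530 to 71870 CPM in control sham, 60140 to 67830 in control TAC, 71780 to 75590 in BCAA-free sham and 69310 to 82480 in BCAA-free TAC hearts, so the TAC groups of the 2 diets did not overlap. Valve and cartilage-like markers were highest in replicate 1 of each TAC group, at 87.95 and 123.2 CPM beside 20.83 to 42.86 CPM in sham hearts. Of 5 tested, 2 rose with TAC on each diet, beside 3.4% and 2.94% of all genes. Adipocyte markers summed to 13.52 to 24.08 CPM in BCAA-free sham and 7.40 to 8.16 CPM in control sham hearts, and 3 of 5 rose, beside 1.05% of all genes. The part of any of these cell types in the enzyme values was not tested.

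The genes whose pattern over the 12 libraries was most like that of a member were listed by the root mean square difference of their centred log2 levels, among 12267 genes. For Lox these included Thbs4 and Ltbp2, with differences of 0.229 and 0.309, beside a median of 1.29 over all genes. For Loxl2 they were Emp1, C1qtnf6 and Fcrls (0.132 to 0.147, median 0.71), and for Pcolce Col6a1, S100a11 and Ace (0.0891 to 0.0978, median 0.453). For Serpinh1 they were Tuba1a, Plxna3 and Zmynd15 (0.141 to 0.162, median 0.408). P4ha1 was most like Hsp90aa1, Ints2 and Palmd (0.0966 to 0.117, median 0.272), and Plod2 like Anxa3, Kif5b and Mtpn (0.0489 to 0.0558, median 0.238). Patterns share library, depth and group effects, so the likeness is a description.

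The genes lie on 8 chromosomes of GRCm38, and their models have 6 to 21 merged exons. Lox is on chromosome 18, Loxl1 and Plod2 on 9, Loxl2 on 14, Loxl3 on 6, P4ha1 on 10, P4ha2 on 11, P4ha3 and Serpinh1 on 7 and Pcolce on 5. P4ha3 (chr7:100285520-100319699, plus strand) and Serpinh1 (chr7:99345376-99353239, minus strand) lie on the same chromosome, on opposite strands. Pcolce shares 112 exon bases with Fbxo24 and with the antisense gene Gm36266, which differed by -0.31 and 0.05 with TAC on the control diet (limma, adjusted p = 0.562 and 0.934). Loxl2 shares 301 exon bases with the antisense gene Gm27177, which the tables do not list.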

How the data were processed

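Bulk polyadenylated RNA of 12 heart libraries was sequenced, with total RNA extracted with Trizol per the labels. The submitters' processing notes name STAR 2.5.2b, DESeq2, Subread 1.5.2, Trimmomatic 0.36 and GRCm38; their settings and strand use are not given. The authors deposited 4 tables, 1 per pair of groups. The deposited library columns hold a signal: as the values show, each is a read count over a size factor specific to library and table. The deposited fold changes are log2 values, and a p-value, raw and adjusted, was deposited with each, per the file headers. Samples were grouped by diet and surgery as labelled.

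Reads were recovered from the steps of the values, and 100% came out whole within 0.001 read. Levels between tables are CPM of these reads over the 15665 genes listed for all 12 libraries, scaled by TMM (edgeR 4.0.16), with lengths from GENCODE M21. The 6 comparisons were fitted within the table or tables concerned by limma 3.58.1 with a mean-variance trend (R 4.3.3), on log2(value + 4), after genes with a mean under 10 were left out. The difference between TAC responses and the diet difference averaged over surgery combine separately scaled tables. P-values were adjusted by Benjamini-Hochberg over all genes tested, with 0.05 as threshold. edgeR's quasi-likelihood test and DESeq2 1.42.0 on the recovered reads, other filters, offsets and scalings, and leaving out libraries were alternatives. All 10 members are named. From each list, at most 3 genes past the threshold are named, by smallest p, or else 1; some genes that meet this rule are not reported here. Members and lists were chosen with earlier results of these data known, and the collagen ratio after levels were seen. Intervals on reads cover counting error only.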

Additional observations from a re-analysis of the deposited data

How the results depend on the processing

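Of 1143 alternative values of single genes, 968 kept direction and side of the threshold, 80 no longer passed it, 30 newly passed it, 65 changed sign while neither value passed it, and 0 reversed. Members past the threshold numbered 4 for TAC on the control diet, with 7 by DESeq2, 1 with a robust spread, 0 without control TAC replicate 3 when the genes of the full comparison were kept, and 0 to 4 without single libraries. For TAC on the BCAA-free diet the count was 6 with P4ha3 included, with P4ha3 as the only 1 under a robust spread and 0 to 7 without single libraries. In sham hearts 4 passed for diet, with 0 when the 12 libraries were fitted on a common scale and 1 to 5 without single libraries. In TAC hearts 0 passed for diet, with 1 by DESeq2, 4 without replicate 1 of both TAC groups and 0 to 2 without single libraries. Averaged over surgery 3 passed, with 6 without replicate 1 of both TAC groups and 1 to 6 without single libraries. Without single libraries, calls over all genes ranged from 300 to 659 for TAC on the control diet and from 106 to 1199 on the BCAA-free diet (848 and 688 with all libraries). For diet they ranged from 68 to 1020 in sham hearts, from 138 to 1044 in TAC hearts and from 1062 to 2484 averaged over surgery (438, 548 and 1819). DESeq2 gave 1544 and 1159 for TAC on the control and the BCAA-free diet, 826 and 1181 for diet in sham and TAC hearts and 109 for the difference of responses (7 with limma), and the common scale gave 1191 in TAC hearts. The difference between TAC responses stayed at 0 under each alternative run. The robust spread, the omission of TAC replicate 1 and the fits that kept the full genes were chosen after seeing the data. The cause of these changes was not tested.

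Replicate numbers recur in each group. Same-numbered libraries deviated together with correlations of -0.09 to 0.26 over all genes, the highest between replicate 1 of both TAC groups. Whether same-numbered libraries share a batch is not stated in the labels and was not tested. With a replicate block the counts were 4, 6, 5, 4, 0 and 3 in the order TAC on each diet, diet in sham, diet in TAC, difference of responses and average. The count of 6 includes P4ha3. Calls over all genes under that block were 805, 525, 713, 1275, 3 and 1831 in the same order, beside 848, 688, 438, 548, 7 and 1819 without it. In TAC hearts the 4 genes were Serpinh1, Lox, Loxl2 and Loxl3. Groups of 3 libraries were too small for a test of single outlying libraries. P4ha3, with 1 to 10 reads in sham libraries, has the least depth of the 10.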
